A study of Homo sapiens with 12 samples.

Results

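The snoRNA host noncoding genes are genes that make no protein and carry small nucleolar RNAs (snoRNAs) in their introns. Their members were taken by name, as every gene whose symbol is SNHG followed by a number, together with GAS5, ZFAS1 and DANCR. This gave 31 of the 58780 genes counted. The libraries came from HEK293 cells, a line derived from human embryonic kidney that was used here in its Flp-In T-REx form. The cells received control siRNA (control), siRNA against SAFB1 (SAFB1 KD), siRNA against SLTM (SLTM KD) or siRNAs against SAFB1, SAFB2 and SLTM together (triple KD), with 3 libraries each, and were harvested on the second day. The single knockdowns were made up with control siRNA to the amount used in triple KD, and no group holds SAFB2 knockdown alone. All groups therefore share the same line and transfection, and the RNA was purified on oligo(dT) beads before strand-specific sequencing, so that levels refer to polyadenylated RNA.

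SAFB1, SAFB2 and SLTM are nuclear RNA-binding proteins, and the question asked of these libraries was what happens to gene expression when they are lost singly or together. A snoRNA host gene is transcribed by RNA polymerase II and spliced, and the snoRNA is then trimmed out of the excised intron. C/D snoRNAs (SNORD) carry a C box and a D box and guide the methylation of ribose in ribosomal RNA, whereas H/ACA snoRNAs (SNORA) end in an ACA box and guide the conversion of uridine to pseudouridine. Their relatives in Cajal bodies (scaRNAs, SCARNA) guide the same changes in spliceosomal RNAs. Many noncoding hosts begin with a run of pyrimidines like the 5′ terminal oligopyrimidine (TOP) tract of ribosomal protein mRNAs, and their spliced RNAs are known substrates of nonsense-mediated decay. The counts below are of reads on the annotated exons of the host gene, not of the mature snoRNA. Spliced host RNA was not counted apart from host RNA that keeps introns. For SNHG1, SNHG8, SNHG9, SNHG15 and SNHG19 the joined exons of the annotation used for symbols cover the whole gene.

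The nested snoRNAs of 5 members show the difference between both families, and they are printed because the members below are grouped by it. They are given 5′ to 3′ as annotated by GENCODE on GRCh38. Capitals mark the last ACA of an H/ACA snoRNA, and the first TGATGA (C box) and the last CTGA (D box) of a C/D snoRNA.
SNORA78: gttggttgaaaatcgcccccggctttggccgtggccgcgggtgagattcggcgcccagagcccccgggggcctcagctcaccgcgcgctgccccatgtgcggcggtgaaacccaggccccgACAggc
SNORA26: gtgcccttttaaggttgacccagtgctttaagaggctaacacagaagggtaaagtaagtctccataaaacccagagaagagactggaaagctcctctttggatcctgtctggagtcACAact
SNORD60: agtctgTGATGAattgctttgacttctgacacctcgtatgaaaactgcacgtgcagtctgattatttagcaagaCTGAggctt
SNORD1B: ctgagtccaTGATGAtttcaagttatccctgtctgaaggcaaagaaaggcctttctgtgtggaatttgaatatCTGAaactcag
SNORD27: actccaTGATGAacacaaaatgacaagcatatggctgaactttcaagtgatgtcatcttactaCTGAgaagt
SNORA78 lies at chr16:1965184-1965310 (plus strand) in an intron of SNHG9, and SNORA26 at chr4:52713249-52713370 (plus strand) in an intron of DANCR. SNORD60 lies at chr16:2155023-2155105 (minus strand) in SNHG19, SNORD1B at chr17:76561109-76561192 (plus strand) in SNHG16, and SNORD27 at chr11:62855012-62855083 (minus strand) in SNHG1. In both H/ACA snoRNAs 3 bases follow the ACA.

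The 12 libraries held 56856228 to 75533510 counts. The siRNA targets moved as labelled. SAFB, which encodes SAFB1, had 232 ± 2.27 CPM (the count divided by the adjusted total of its library; mean ± SD, n = 3) in control, 45.3 ± 0.905 in SAFB1 KD and 38.2 ± 1.57 in triple KD. SLTM had 116 ± 1.17 in control, 20.5 ± 1.88 in SLTM KD and 25.0 ± 2.15 in triple KD. SAFB2 had 126 ± 2.49 in control and 29.1 ± 1.12 in triple KD, and its level in SAFB1 KD was 209 ± 3.76. All 9 markers listed for HEK293 had a mean of at least 1 CPM, and no listed leukocyte or squamous marker did. Of 5 fibroblast markers, COL1A1 and COL3A1 did, DCN and COL1A2 were under the count minimum, and the list summed to 14.2 to 15.1 CPM in control and 13.8 to 14.6 in triple KD. COL3A1, a collagen gene, rose in triple KD (0.50 ± 0.13, adjusted p = 0.000887 in edgeR). The summed level of the listed colon markers was 50.5 to 52.6 CPM in control and 61.5 to 62.4 CPM in triple KD. LGR5 rose (22.5 to 32.2 CPM), CDX2 was not called (28.7 and 29.7 CPM), and KRT20 and CDX1 were under the count minimum. The HEK293 markers summed to 1840 to 1880 CPM in control and 1760 to 1780 in triple KD. The part of these markers in the results was not tested. In bulk RNA, fewer cells of a kind and less RNA per cell cannot be told apart.

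Of the 31 members, 28 reached at least 10 counts summed over the 12 libraries and were tested. SNHG27 and SNHG28 had no count in any library and SNHG18 had 1 count. A further 4 members, SNHG14, SNHG21, SNHG22 and SNHG31, were tested at a mean under 1 CPM, which left 24 members at 1 CPM or more. Together the members took 0.0995% to 0.107% of the counts of a library, 1059 ± 13.04 CPM in control, 1042 ± 12.13 in SAFB1 KD, 1002 ± 6.35 in SLTM KD, against 1008 ± 6.8 in triple KD. Per kilobase of annotated exon, the highest mean levels over all libraries were those of SNHG29 (24.9 CPM per kb), SNHG19 (20.6), SNHG9 (18.8), GAS5 (17.7) and SNHG1 (13.8). These lengths join all exons of GENCODE release 44 and include transcripts that keep introns. Divided by the median transcript length instead, the order began with SNHG29 (219 CPM per kb), GAS5 (119) and SNHG5 (112), so the order depends on the transcript models.

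**Figure D1:**
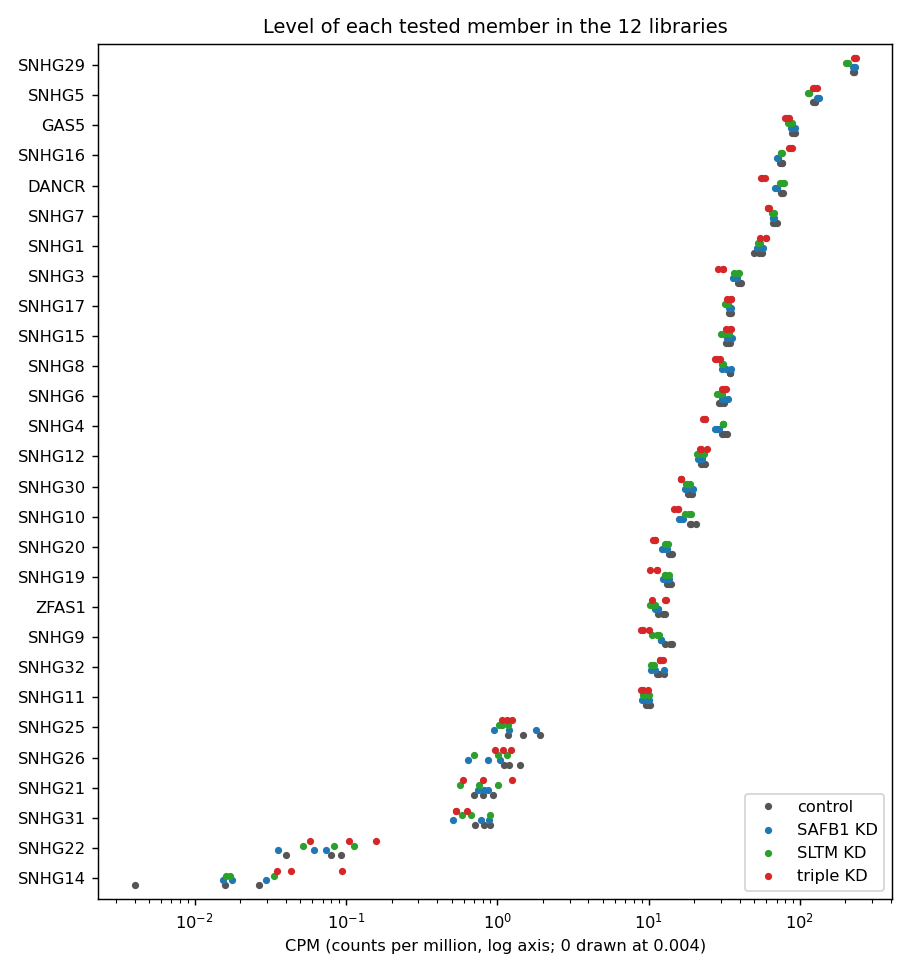
Level of the 28 tested members (rows) in CPM on a log axis, not corrected for length; each point is 1 library, coloured by group. Members span from SNHG14, with 22 counts over all libraries, to SNHG29, with 172178 counts.

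In triple KD, the tested members fell more often than they rose. The further lncRNA (long noncoding RNA) genes at 1 CPM or more also fell more often than they rose, with shares given below. Of 28, 12 were lower than control, 2 were higher and 14 were not called at an adjusted p under 0.05 (edgeR quasi-likelihood test, Benjamini-Hochberg over 26688 genes). Among all genes tested, 20.9% were called lower and 19.4% higher; among the 13989 genes averaging 1 CPM or more these shares were 35.2% and 30.1%. The 24 members at that level held 11 lower (45.8%) and 2 higher (8.33%). The median log2 fold change was −0.12 over the 28 members and 0.00 over all genes tested, and −0.15 over the 24 members against −0.02 over all genes at that level. No member passed a test for a change over 2-fold (edgeR glmTreat), either adjusted or at an unadjusted p under 0.05, and DESeq2 with the same threshold also gave 0. The called changes ran from −0.54 to 0.21 on the log2 scale. Among all genes 0.955% passed that test.

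**Figure D2:**
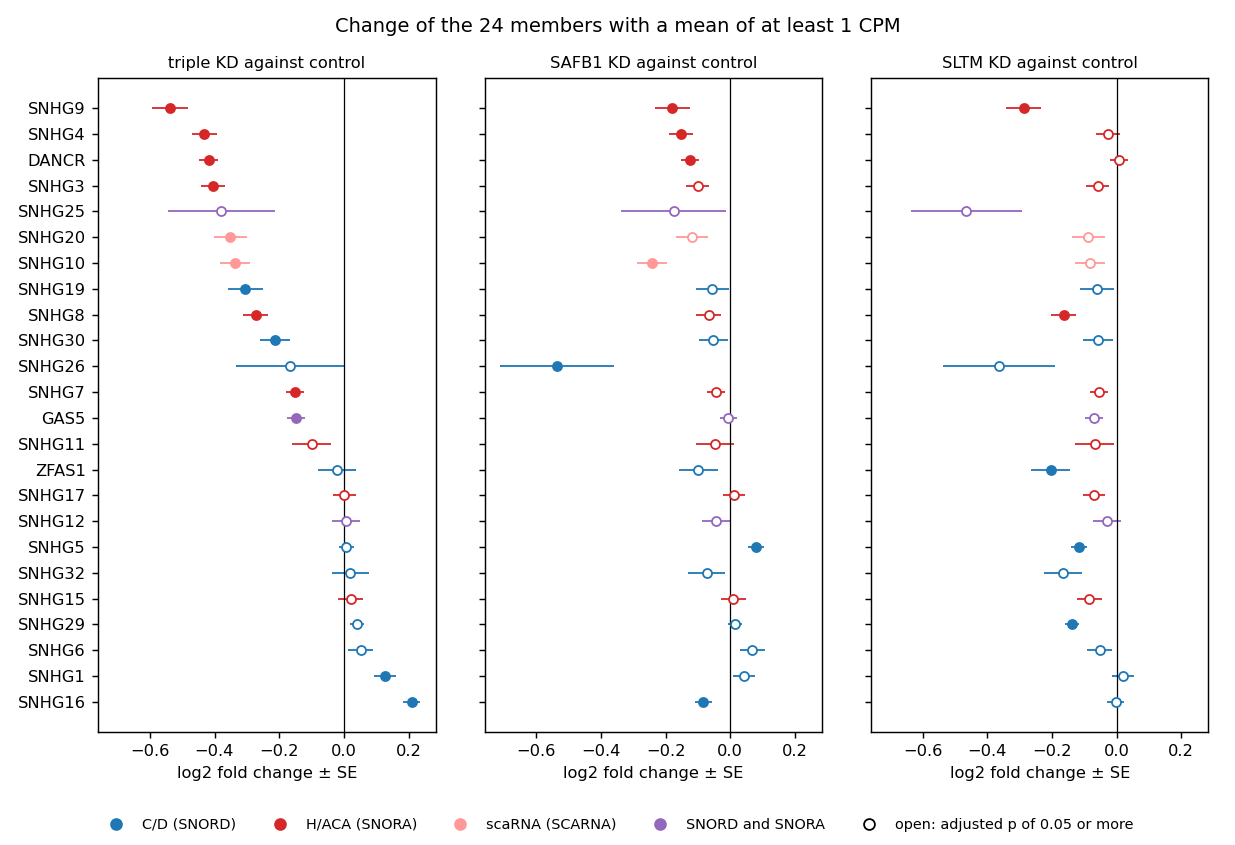
Log2 fold change ± SE of the 24 members with a mean of at least 1 CPM in triple KD, SAFB1 KD and SLTM KD against control, ordered by triple KD; colour gives the type of nested snoRNA and filled points passed an adjusted p of 0.05. In triple KD the members run from SNHG9 at −0.54 to SNHG16 at 0.21.

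The member with the deepest fall in triple KD was SNHG9, a short gene at chr16:1964895-1965509 (plus strand, GRCh38) that hosts SNORA78. It had 12.75, 14.17 and 13.88 CPM in the control libraries, 12, 12.11 and 11.99 in SAFB1 KD, 11.28, 10.56 and 11.66 in SLTM KD, against 9.23, 8.94 and 10.02 in triple KD. Every triple KD library lay below every other library, and both single knockdowns lay between control and triple KD. The log2 fold change was −0.54 ± 0.06 (SE, adjusted p = 1.17e-12) in triple KD, −0.29 ± 0.05 (adjusted p = 9.62e-05) in SLTM KD and −0.18 ± 0.05 (adjusted p = 0.0202) in SAFB1 KD. SNHG9 was the only member called lower in all of these comparisons. Its call in SAFB1 KD was lost without control replicate 2 or 3, or without SAFB1 KD replicate 2 or 3 (adjusted p from 0.0514 to 0.109 in edgeR).

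DANCR, SNHG4 and SNHG3 were named after their values were seen. DANCR, known as an antidifferentiation noncoding RNA, spans chr4:52712325-52723623. It had 75.23, 75.77 and 77.02 CPM in control, 68.33, 70.04 and 70.94 in SAFB1 KD, 74.34, 76.75 and 78.20 in SLTM KD, against 55.11, 56.35 and 59.20 in triple KD. The triple KD libraries stood apart from all others, SAFB1 KD lay just under control, and SLTM KD overlapped control. Its log2 fold change was −0.42 ± 0.03 (adjusted p = 1.19e-19) in triple KD and −0.12 ± 0.03 (adjusted p = 0.00131) in SAFB1 KD. SNHG4, the host of SNORA74A and SNORA74D, had 32.88, 31.33 and 30.68 CPM in control, 29.21, 27.64 and 28.41 in SAFB1 KD, 31.12, 31.01 and 30.96 in SLTM KD, against 23.69, 23.64 and 22.96 in triple KD. The SLTM KD libraries of SNHG4 overlapped control, and those of SAFB1 KD lay between control and triple KD. SNHG4 changed by −0.43 ± 0.04 (adjusted p = 2.65e-15) in triple KD and −0.15 ± 0.04 (adjusted p = 0.00269) in SAFB1 KD. SNHG3, which carries SNORA73A and SNORA73B, had 40.03, 39.21 and 40.99 CPM in control, 38.22, 36.08 and 37.95 in SAFB1 KD, 39.81, 36.55 and 39.08 in SLTM KD, against 31.06, 31.04 and 28.74 in triple KD. The SNHG3 change in triple KD was −0.40 ± 0.04 (adjusted p = 1.07e-14), and its value of −0.10 ± 0.04 in SAFB1 KD missed the threshold (adjusted p = 0.0662), though it passed with the replicate block (adjusted p = 0.0209), with no filter (0.0306) and with only the libraries compared (0.0379).

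**Figure D3:**
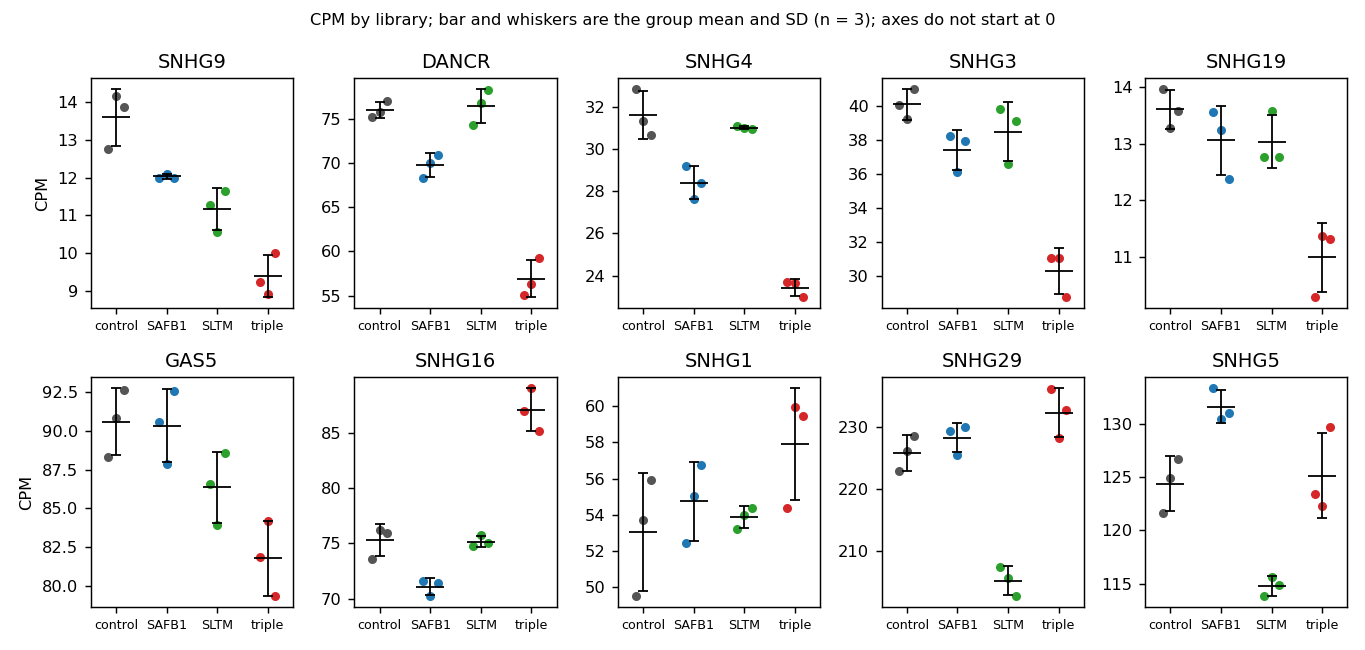
CPM of 10 members in each of the 12 libraries; points are libraries, bars and whiskers the mean and SD of a group (n = 3), and the axes do not start at 0. For SNHG9, DANCR, SNHG4, SNHG3 and SNHG19 the triple KD libraries sit below all others, for SNHG16 they sit above all others, and for SNHG29 and SNHG5 the SLTM KD libraries are the lowest.

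Of the other members that fell in triple KD, those at 1 CPM or more changed by −0.35 to −0.15. SNHG20 and SNHG10, each the host of a scaRNA, changed by −0.35 ± 0.05 (adjusted p = 3.15e-08) and −0.34 ± 0.05 (adjusted p = 1.37e-08). SNHG8, the host of SNORA24, changed by −0.27 ± 0.04, and SNHG7, the host of SNORA17A and SNORA17B, by −0.15 ± 0.03. SNHG19 and SNHG30 host C/D snoRNAs, SNORD60 and SNORD7. SNHG19 (chr16:2154792-2155405, minus strand) had 14.0, 13.3 and 13.6 CPM in control, 13.6, 13.2 and 12.4 in SAFB1 KD, 12.8, 13.6 and 12.8 in SLTM KD, against 10.3, 11.4 and 11.3 in triple KD, a change of −0.30 ± 0.05 in triple KD (adjusted p = 1.89e-06). The triple KD values did not overlap those of the other groups, which overlapped each other. SNHG30 changed by −0.21 ± 0.05. SNHG31, under 1 CPM, gave −0.52 ± 0.21 (adjusted p = 0.0411), and this call was lost when replicate 1 or 2 of control was left out, or replicate 2 or 3 of triple KD, with values from −0.43 to −0.51. It was also lost with DESeq2 (−0.51, adjusted p = 0.106) and with upper-quartile factors in edgeR (−0.48, adjusted p = 0.0579).

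GAS5, growth arrest-specific 5, lies at chr1:173858559-173868882 (minus strand) and fell by a small step. It had 88.3, 90.8 and 92.6 CPM in control, 90.5, 87.9 and 92.5 in SAFB1 KD, 86.6, 84.0 and 88.5 in SLTM KD, against 81.9, 84.2 and 79.4 in triple KD. The triple KD libraries lay below those of control and SAFB1 KD and overlapped SLTM KD. The change in triple KD was −0.15 ± 0.03 (adjusted p = 6.17e-06). RefSeq places 10 C/D snoRNAs and SNORA103 in its span. All 12 members called lower had non-overlapping triple KD and control libraries, and as above 20.9% of all genes were called lower. How many of all genes had non-overlapping libraries was not counted, so the 12 add nothing beyond the calls.

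SNHG16 and SNHG1 were the members that rose in triple KD, and both host C/D snoRNAs only. SNHG16, the host of SNORD1A, SNORD1B and SNORD1C and named after its values were seen, had 73.60, 76.25 and 75.95 CPM in control, 71.62, 70.21 and 71.40 in SAFB1 KD, 74.72, 75.74 and 75.02 in SLTM KD, against 86.98, 89.05 and 85.19 in triple KD. Its triple KD libraries were above all others and its SAFB1 KD libraries below all others. The SNHG16 change was 0.21 ± 0.03 (adjusted p = 5.15e-10) in triple KD and −0.08 ± 0.03 (adjusted p = 0.0332) in SAFB1 KD. SNHG1 (chr11:62851978-62855953, minus strand), which carries 8 C/D snoRNAs, had 49.5, 53.7 and 55.9 CPM in control, 52.4, 55.1 and 56.8 in SAFB1 KD, 53.2, 54.0 and 54.4 in SLTM KD, against 54.4, 60.0 and 59.5 in triple KD. Its groups overlapped, and its change of 0.13 ± 0.03 (adjusted p = 0.00185) became 0.08 (adjusted p = 0.0695) without control replicate 1.

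The remaining members were not called in triple KD. Among those at 1 CPM or more, 8 had log2 values between −0.10 and 0.04: SNHG11, ZFAS1, SNHG17, SNHG12, SNHG5, SNHG32, SNHG15 and SNHG29. SNHG6 stood at 0.05 ± 0.04. SNHG25, with a mean of 1.27 CPM, gave −0.38 ± 0.17 (adjusted p = 0.0641) and passed the threshold under some other settings, and SNHG26, with 1.04 CPM, gave −0.17 ± 0.17. For the low members the interval was wide: the 95% interval of the log2 change was −0.26 to 0.53 for SNHG21 and −0.61 to 1.75 for SNHG22. SNHG14, the antisense RNA of the UBE3A locus with 22 counts in all, was 0 to 0.0265 CPM in control and 0.0350 to 0.0947 CPM in triple KD, without overlap. Its log2 change of 1.90 had an interval of −0.18 to 3.97 and was not called (adjusted p = 0.126).

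Sorted by the snoRNAs they carry, members that host only H/ACA snoRNAs or scaRNAs and members that host only C/D snoRNAs had different counts. This grouping was read after the changes of the members were known. It is a description with no test. Of the 11 members with H/ACA snoRNAs or scaRNAs only and at least 1 CPM, 8 were lower in triple KD, 3 (SNHG11, SNHG15 and SNHG17) were not called and 0 were higher, also at an unadjusted p under 0.05 and by DESeq2. Among all genes at that level 35.2% were lower and 30.1% higher. Of the 10 with C/D snoRNAs only, 2 were lower (SNHG19, SNHG30), 2 were higher (SNHG1, SNHG16) and 6 were not called. The median log2 fold change was −0.27 over the 9 H/ACA hosts, −0.34 over the 2 scaRNA hosts and 0.01 over the 10 C/D hosts. The 3 members with both types, GAS5, SNHG12 and SNHG25, had a median of −0.15. In the single knockdowns the medians of C/D and H/ACA hosts were nearer to each other, at −0.05 and −0.07 in SAFB1 KD and at −0.09 and −0.07 in SLTM KD.

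**Figure D4:**
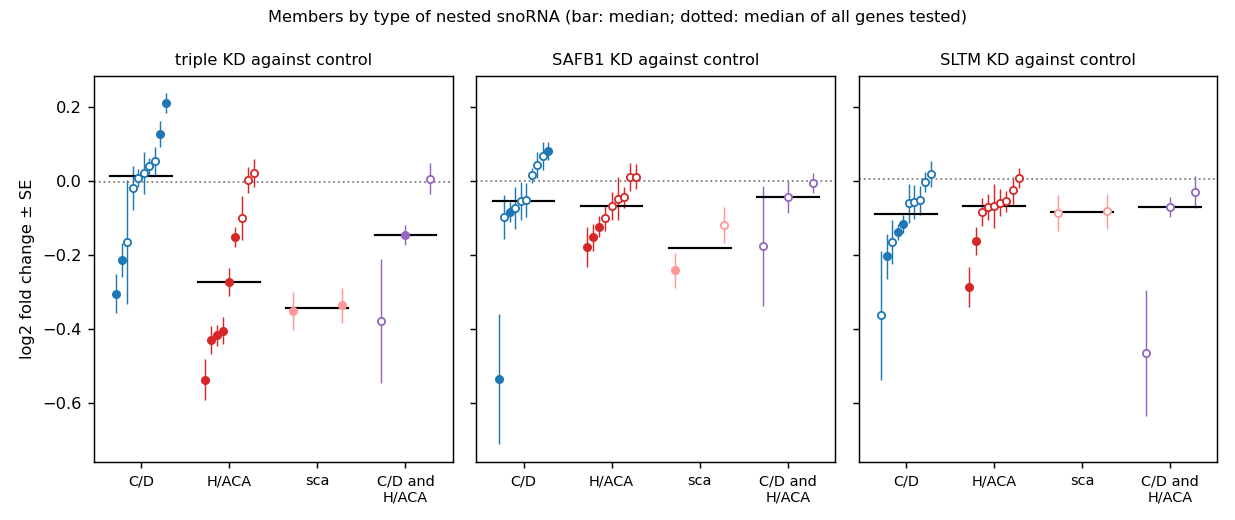
Log2 fold change ± SE against control of the 24 members at 1 CPM or more, by type of nested snoRNA, in triple KD, SAFB1 KD and SLTM KD; bars are medians, the dotted line is the median of all genes tested, and filled points passed an adjusted p of 0.05. In triple KD the H/ACA hosts have a median of −0.27 and the C/D hosts of 0.01.

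In protein-coding hosts of snoRNAs the medians of both types lay near 0. By calls, hosts of H/ACA snoRNAs only were more often lower than higher, and hosts of C/D snoRNAs only more often higher than lower. Of 153 protein-coding genes with a snoRNA in an intron, 149 were tested in triple KD, of which 52 (34.9%) were lower and 42 (28.2%) higher, with a median log2 fold change of −0.02 (−0.015 before rounding). The 81 with H/ACA snoRNAs only had 31 lower and 21 higher and a median of −0.02, and the 59 with C/D snoRNAs only had 16 lower and 20 higher and a median of 0.00. Among all genes tested 20.9% were lower and 19.4% higher, and at 1 CPM or more 35.2% and 30.1%. RCC1 and MATR3 are on the coding list for snoRNAs that also lie in SNHG3 and SNHG4, so the coding and noncoding lists share snoRNAs. The difference between coding and noncoding hosts was not tested.

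SAFB1 KD changed 7 of the 28 members. The 6 that fell were SNHG10 (−0.24 ± 0.05, adjusted p = 0.000148), SNHG9, SNHG4, DANCR, SNHG16 and SNHG26, and SNHG5 rose (0.08 ± 0.02, adjusted p = 0.0212). Over all genes 4.62% were called lower and 5.04% higher, against 21.4% and 3.57% of the members. At 1 CPM or more, 8.11% of all genes were lower and 9.24% higher, against 25.0% and 4.17% of the members. SNHG10 and SNHG26 were named after their values were seen. SNHG10 had 18.71, 18.96 and 20.54 CPM in control and 16.98, 15.86 and 16.44 in SAFB1 KD, without overlap. SNHG26, at 1.42, 1.12 and 1.19 CPM in control and 0.644, 1.04 and 0.869 in SAFB1 KD, gave −0.54 ± 0.18 (adjusted p = 0.0394) at about a single CPM. The calls of SNHG5, SNHG9, SNHG16 and SNHG26 were each lost without some single library; without SAFB1 KD replicate 1 SNHG26 gave −0.37 (adjusted p = 0.269). Without control replicate 3, or without SAFB1 KD replicate 3, the count of lower members was 3, with SNHG9, SNHG16 and SNHG26 lost.

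SLTM KD lowered 5 of the 28 members and raised none, where edgeR and DESeq2 both gave 0 higher, also at an unadjusted p under 0.05. Over all genes 5.65% were called lower and 3.6% higher, and at 1 CPM or more 10.4% and 6.2%, against 20.8% and 0% of the members at that level. SNHG29 and SNHG5, both C/D hosts, were low in SLTM KD alone among the groups. SNHG29 (chr17:16438767-16480249, plus strand; SNORD49A, SNORD49B and SNORD65) had 223, 226 and 229 CPM in control, 229, 226 and 230 in SAFB1 KD, 207, 206 and 203 in SLTM KD, against 236, 228 and 233 in triple KD. All SLTM KD libraries were below all others, and the change against control was −0.14 ± 0.02 (adjusted p = 1.3e-06). SNHG5, the host of SNORD50A and SNORD50B and named after its values were seen, had 122, 125 and 127 CPM in control, 133, 131 and 131 in SAFB1 KD, 114, 116 and 115 in SLTM KD, against 123, 122 and 130 in triple KD. Its SLTM KD libraries were the lowest and its SAFB1 KD libraries the highest, with a change in SLTM KD of −0.12 ± 0.02 (adjusted p = 0.000403). The other members that fell were SNHG9, SNHG8 (−0.16 ± 0.04) and ZFAS1 (−0.20 ± 0.06, adjusted p = 0.0199). With no count filter, or with the replicate number as a block, 8 members were lower, with GAS5, SNHG25 and SNHG32 added. The ZFAS1 call was lost without control replicate 1 or 2 or without SLTM KD replicate 2 or 3, with values from −0.18 to −0.20.

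The knockdowns also differed among themselves. Triple KD and SAFB1 KD differed in 12 of 28 members, 11 lower and 1 higher in triple KD, where 34.9% of all genes differed. At 1 CPM or more, 12 of 24 members and 58.2% of all genes differed. The higher one was SNHG16 (0.29 ± 0.03, adjusted p = 1.65e-14), and the largest fall was that of SNHG9 (−0.36 ± 0.06, adjusted p = 4.6e-07). Triple KD and SLTM KD differed in 19 members, 11 lower and 8 higher in triple KD, where 36.3% of all genes differed. At 1 CPM or more these shares were 79.2% and 60.4%, with 31.8% of all genes lower and 28.7% higher in triple KD. The 8 higher ones were SNHG16, SNHG32, ZFAS1, SNHG29, SNHG5, SNHG1, SNHG6 and SNHG15, of which SNHG15 is an H/ACA host and the others are C/D hosts. Without triple KD replicate 3 the count was 14, with GAS5, SNHG1, SNHG6, SNHG15 and ZFAS1 lost. SAFB1 KD and SLTM KD differed in 7 members, where 16% of all genes differed. At 1 CPM or more these shares were 29.2% and 28.5%, with 11.4% of all genes lower and 17.1% higher in SAFB1 KD. SNHG5 (0.20 ± 0.02, adjusted p = 4.66e-09), SNHG29 (0.15 ± 0.02, adjusted p = 6.83e-08) and SNHG6 (0.12 ± 0.04, adjusted p = 0.0269) were higher in SAFB1 KD, whereas DANCR, SNHG10, SNHG4 and SNHG16 were lower in it, by −0.16 to −0.08. These comparisons share libraries.

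Triple KD departed from the summed log2 changes of SAFB1 KD and SLTM KD in 8 members, and 21.4% of all genes departed. At 1 CPM or more, 33.3% of the members and 38.1% of all genes did. Of all genes at that level, 21.7% were lower and 16.4% higher than the sum. The sum lacks a share for SAFB2, for which no library was analysed here. In the single knockdowns other genes of the SAFB family also rose. In SAFB1 KD, SAFB2 changed by 0.73 ± 0.02 (adjusted p = 4.17e-34 in edgeR) and SLTM by 0.26 ± 0.03 (adjusted p = 2.16e-09). In SLTM KD, SAFB2 changed by 0.14 ± 0.02 (adjusted p = 1.15e-05), and SAFB was not called. The single changes in the sum come from cells with these rises, whose part in the departures was not tested. Triple KD was lower than the sum for DANCR (−0.42 against a sum of −0.12; departure −0.30 ± 0.04, adjusted p = 1.57e-08), SNHG4 (−0.25 ± 0.05, adjusted p = 0.000168) and SNHG3 (−0.25 ± 0.05, adjusted p = 0.000164), which host H/ACA snoRNAs. It was higher than the sum for SNHG16 (0.21 against a sum of −0.09; departure 0.30 ± 0.04, adjusted p = 3.56e-09), SNHG29 (0.16 ± 0.03), ZFAS1 (0.28 ± 0.09), SNHG32 (0.26 ± 0.08) and SNHG26 (0.73 ± 0.25, adjusted p = 0.0275), which host C/D snoRNAs. No C/D host was called lower than the sum by edgeR or DESeq2, and 1 was at an unadjusted p under 0.05 with each tool; in edgeR it was SNHG19. SNHG9, with a sum of −0.47 and −0.54 in triple KD, was not called. The calls of SNHG26, SNHG32 and ZFAS1 did not hold without some single library: without triple KD replicate 3 the count was 6, with SNHG26 and ZFAS1 lost.

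**Figure D5:**
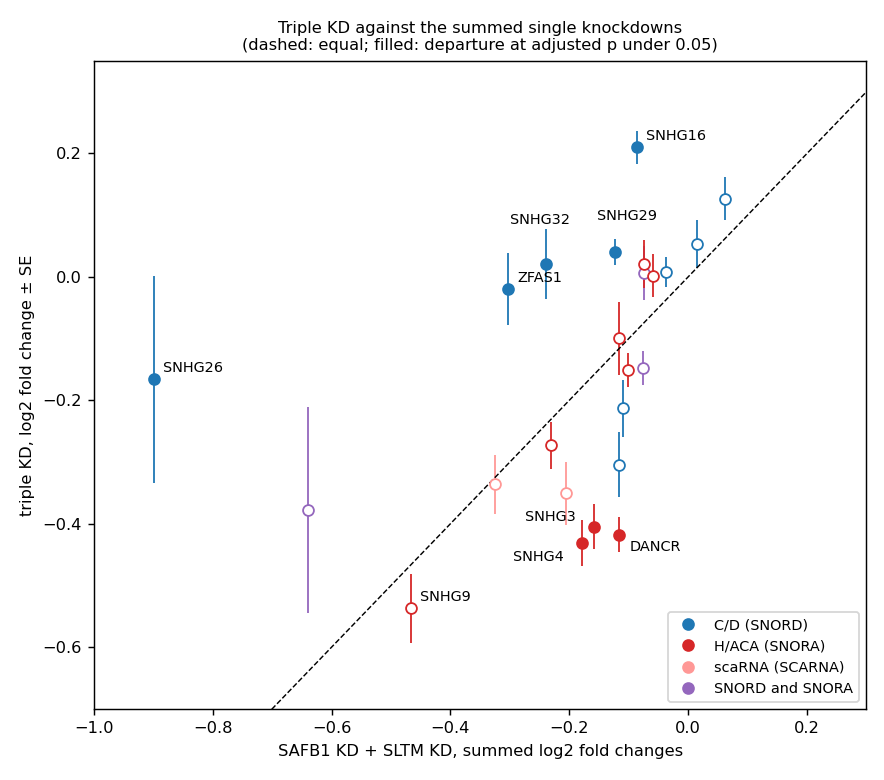
Log2 fold change of the 24 members in triple KD (vertical, ± SE) against the sum of their changes in SAFB1 KD and SLTM KD (horizontal); the dashed line marks equality and filled points departed at an adjusted p under 0.05. DANCR, SNHG3 and SNHG4 lie below the line, and SNHG16, SNHG29, SNHG32, ZFAS1 and SNHG26 above it.

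The bases at the annotated start were read next, because a pyrimidine tract there is the textbook mark of TOP RNAs. The windows below, from RefSeq on GRCh38, run from 20 bases before the start to 20 bases from it, and capitals mark the pyrimidines (C or T) that follow without a break from the start.
SNHG4: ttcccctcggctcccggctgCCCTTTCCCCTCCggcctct
SNHG19: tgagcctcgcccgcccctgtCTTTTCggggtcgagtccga
SNHG5: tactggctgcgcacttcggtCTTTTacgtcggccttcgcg
SNHG32: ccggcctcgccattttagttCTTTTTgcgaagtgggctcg
ZFAS1: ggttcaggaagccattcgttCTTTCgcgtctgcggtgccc
DANCR: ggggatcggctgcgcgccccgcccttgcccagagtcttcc
A C at the start followed by at least 3 further pyrimidines was found in 9 of the 27 members with a window: SNHG4, SNHG5, SNHG7, SNHG12, SNHG18, SNHG19, SNHG26, SNHG32 and ZFAS1. It was found in 5.45% of all 35116 windows, on the strand of the gene, and in 44 of 67 cytosolic ribosomal protein genes. Of the 8 tested members with the run, 3 fell in triple KD (SNHG4, SNHG19 and SNHG7) and 0 rose, and of the 16 tested members without it 8 fell and 2 rose. The share of 37.5% lower lay near the 35.2% of all genes at 1 CPM or more. The 16 without the run include SNHG14, SNHG21, SNHG22 and SNHG31, which lay under 1 CPM. Some ribosomal protein genes also lacked the run, so its absence does not mark an RNA without a TOP tract. SNHG4 and SNHG5 both carry the run, and they stood at −0.43 and 0.01 in triple KD. SNHG6, SNHG9, SNHG15 and SNHG25 had no window.

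Several members have a coding gene on the opposite strand that overlaps them or starts within 1 kb of their start, and these neighbours moved in both directions. RPS2, a ribosomal protein gene beside SNHG9, stood at −0.01 ± 0.02 in triple KD (adjusted p = 0.815) and rose in SLTM KD (0.12 ± 0.02, adjusted p = 1.31e-06), where SNHG9 fell. SLC3A2, which encodes an amino acid transporter subunit and lies beside SNHG1, fell in triple KD (−0.12 ± 0.02, adjusted p = 1.43e-05), where SNHG1 rose. ZBTB37, beside GAS5, fell in triple KD (−0.12 ± 0.04, adjusted p = 0.0208), as GAS5 did. ERVMER34-1, beside DANCR, fell (−0.21 ± 0.08, adjusted p = 0.0393). TRAF7, beside SNHG19, was not called (0.03 ± 0.02), and LRRC75A, beside SNHG29, rose (0.29 ± 0.08, adjusted p = 0.00155). RCC1, a chromatin factor gene that shares exon bases with SNHG3 on the same strand, rose (0.10 ± 0.02, adjusted p = 0.000273). The counting was stranded and used reads with a single position, and reads over shared exon bases of the same strand could not be given to either gene.

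Few counts fell on the nested snoRNA genes themselves. The 55 snoRNA and scaRNA genes that GENCODE places inside members, SNHG14 left aside, drew 3381 counts over the 12 libraries against 793971 for the members, and 37 of them drew none. The highest was SNORA71C in SNHG17 with 512 counts. Reads over bases shared by a snoRNA gene and an exon of its host could not be given to either gene. The part of this in the low counts was not tested. Mature snoRNAs have no poly(A) tail and were outside the reach of these libraries.

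Among the proteins that bind snoRNAs, the core subunits of the H/ACA particle moved in both directions in triple KD. GAR1 fell (−0.68 ± 0.04, adjusted p = 1.3e-23), as did NHP2 (−0.26 ± 0.02, adjusted p = 5.89e-17), whereas NOP10 rose (0.15 ± 0.03, adjusted p = 7.05e-06), and the pseudouridine synthase DKC1 was not called (0.01 ± 0.02). Of the C/D core, NOP56 fell (−0.14 ± 0.02), as did NOP58 (−0.09 ± 0.02), and the methyltransferase FBL rose (0.12 ± 0.02). The 8 core proteins thus held 4 lower and 2 higher, with a median of −0.04, where all genes at 1 CPM or more held 35.2% lower and 30.1% higher. GAR1 had 37.1 ± 1.34 CPM in control, 36.3 ± 0.663 in SAFB1 KD, 33.1 ± 1.56 in SLTM KD, against 23.0 ± 0.847 in triple KD. Of 12 assembly factors of these particles, 3 were higher (TCOF1, PIH1D1 and RUVBL2) and 3 lower (NOLC1, RPAP3 and NOPCHAP1), with a median of 0.00.

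The factors and substrates of RNA decay were mixed as well, and their counts stand beside 30.1% higher and 35.2% lower among all genes at 1 CPM or more. Of 18 nonsense-mediated decay factors, 8 were higher in triple KD and 4 lower, with a median of 0.05; SMG9 rose most by adjusted p (0.51 ± 0.03), followed by RNPS1 (0.22 ± 0.02), and SMG8 fell (−0.26 ± 0.03). Of 9 coding RNAs known as decay substrates, 5 were higher, GADD45A (0.31 ± 0.04) among them, and 2 lower, ATF4 (−0.24 ± 0.02) and TBL2 (−0.21 ± 0.03). Of 19 genes of the nuclear exosome, its adaptors and exonucleases, 9 were lower, EXOSC5 (−0.28 ± 0.03) and EXOSC10 (−0.18 ± 0.02) among them, and 5 were higher, XRN2 (0.10 ± 0.02) among them. Of 12 regulators of TOP translation, 5 were lower and 3 higher; EIF4EBP2 fell (−0.91 ± 0.02), as did MTOR (−0.56 ± 0.02), and LARP4 rose (0.29 ± 0.03), while LARP1, which binds TOP starts, fell slightly (−0.06 ± 0.02, adjusted p = 0.00434). Other well-known noncoding RNAs ran from −0.76 to 0.60. Of 13, 5 were higher, TUG1 (0.60 ± 0.02) among them, and 4 lower, JPX (−0.76 ± 0.03) and NEAT1 (−0.73 ± 0.06) among them. They were listed as not being snoRNA hosts by name, and whether any holds a snoRNA was not read. The 1043 further lncRNA genes at 1 CPM or more held 33.9% lower and 23.9% higher in triple KD, with a median of −0.09.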

How the data were processed

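Polyadenylated RNA of HEK293 cells was sequenced in 12 strand-specific libraries, 3 each of control, SAFB1 KD, SLTM KD and triple KD, which the series text calls biological replicates. The authors trimmed the reads, aligned them to GRCh38 with STAR (2.7.9a) and deposited raw counts of uniquely placed reads per gene of GENCODE release 29, by strand. Gene symbols came from GENCODE release 44, which matched 58207 of the 58780 identifiers (99%). The 26688 genes whose counts over all libraries reached 10 were fitted together with edgeR (4.0.16, R 4.3.3) by the quasi-likelihood F test with TMM factors, 1 term per group, and Benjamini-Hochberg adjustment over all of them; an adjusted p under 0.05 was called. The SE is the size of the log2 change divided by the root of F. CPM values use the TMM library sizes. A change over 2-fold was tested with glmTreat, and the departure from the sum as the triple KD change minus both single changes. The steps were tested on simulated data. Alternatives were RLE and upper-quartile factors, no filter, filterByExpr, DESeq2 (1.42.0), a replicate block, only the libraries compared, RefSeq symbols, and each library left out.

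Values of every library are given for the 5 members highest per kb and for members at 1 CPM or more that changed by at least 0.5 on the log2 scale in triple KD; others are said to be named after their values were seen. The members and gene lists were chosen with earlier results of these data known. Nested snoRNAs came from GENCODE and RefSeq. At 56856228 to 75533510 counts a library, members under 1 CPM are read imprecisely.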

Additional observations from a re-analysis of the deposited data

How the results depend on the processing

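Of 1588 values of single members under the alternatives, 1478 kept their direction and their side of the threshold, 32 lost and 32 gained a call, 46 uncalled values changed sign, and none with a call did. Without a filter, 0 members were higher in SAFB1 KD (1 with it) and 8 were lower in SLTM KD (5 with it), with GAS5, SNHG25 and SNHG32 gained. SNHG29 was higher in triple KD with upper-quartile factors (0.07), filterByExpr (0.05) and DESeq2 (0.05). RefSeq symbols added SNHG33 (−0.07, adjusted p = 0.424) and changed no count.

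With single libraries left out, members higher in triple KD numbered 1 to 3 and lower ones 11 to 13. The counts were 0 to 1 higher and 3 to 7 lower in SAFB1 KD, 4 to 7 lower in SLTM KD, 14 to 19 between triple KD and SLTM KD, and 6 to 9 for departures from the sum. The cause was not tested.

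The replicate block gave 8 members lower in SLTM KD in place of 5, 13 lower in triple KD in place of 12, and 10 in place of 7 between SAFB1 KD and SLTM KD. Over 18 same-numbered pairs, r ran from −0.025 to 0.139 and passed 0.1 in 1; 11 of 12 libraries correlated best with one of their own number, a hint from the data only.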
